A study of Copadichromis virginalis x Mchenga conophoros with 6 samples.

Results

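Allele imbalance was measured in the whole brains of pit-digging male F1 hybrids between Copadichromis virginalis and Mchenga conophoros, a pair of Lake Malawi cichlids. The genes taken were those listed in both pit digging libraries with a summed count of both alleles of at least 20 in each, which gave 8442 of the 13212 genes listed in any of the 6 libraries of the series. Of these, 4850 carried a gene symbol and 3592 an LOC identifier, which the files do not pair with a name. The samples were pit digging (2 libraries), isolated (2 libraries) and castle building (2 libraries), each labelled with that behaviour and taken from the whole brain of male hybrids. The labels used here give no age, brood or direction of the cross, and do not say whether the 2 libraries of a paradigm came from separate animals, so the p-values here reflect the spread of these samples alone, which may be technical.

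In C. virginalis, males dig pits as spawning bowers, and in M. conophoros males pile up sand castles. An F1 hybrid carries a chromosome set from each parent in the same nuclei, so both alleles of a gene meet the same transcription factors, hormones and behaviour. A difference between the alleles is therefore commonly used to look for sequence differences that act on the gene copy they lie on. Mitochondrial DNA is a separate case, since in most vertebrates it comes from the mother alone.

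The pit digging libraries held 3294397 allele-assigned counts over 11716 genes in replicate 1 and 2243289 counts over 9994 genes in replicate 2. A library table lists only genes with at least 6 counts on each allele, so a gene that is not listed is not a count of 0, and at a summed count of 20 the C. virginalis share can lie only between 30 and 70%. The lowest summed count listed was 12 in the pit digging and isolated tables and 21 in the castle building tables. The neuronal markers were listed in both pit digging libraries (8 of 8), as were 2 of 4 oligodendrocyte and 2 of 5 astroglial markers, and no retina or pineal gene was. The pit digging libraries differed in the markers of attached tissue. The pituitary hormone genes pomc (919 summed counts) and cga (720) were listed in pit digging replicate 2 and not in replicate 1, whereas summed vascular and meningeal markers stood at 1024 CPM (counts scaled to the library's total) in replicate 1, with 16 of 18 genes listed, and at 265 CPM in replicate 2, with 11 listed. In bulk tissue, fewer cells of a type and less RNA per cell cannot be told apart. Summed counts varied far more between the pit digging libraries (chi-square per degree of freedom of 27.3) than between the castle building files (0.495). Between the isolated libraries the value was 20.4. The castle files thus differed by less than the sampling noise of separate libraries, and their mean was counted as 1 sample.

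The comparison asked which genes the hybrid brain expresses unequally from the C. virginalis and the M. conophoros allele during pit digging. A gene was called when its allele ratio passed an adjusted p of 0.05 in a model over both pit digging libraries (edgeR quasi-likelihood test, Benjamini-Hochberg over all 8442 genes). In all, 444 genes were called, or 5.26% of those tested. Of these, 427 (5.06%) had more C. virginalis and 17 (0.201%) more M. conophoros counts. The split depended on the scaling: 565 genes were called towards C. virginalis and 56 towards M. conophoros with TMM between the alleles, and 643 and 60 with each library centred on its median ratio. All 444 had the same direction in both libraries, but they were picked by a fit to these same libraries, so this adds no support. The median fold was 2.23 for the C. virginalis calls, with 264 above 2-fold and 78 above 4-fold, and 4.86 for the M. conophoros calls, with 14 above 2-fold. Named symbols made up 224 of the C. virginalis calls and 7 of the M. conophoros calls.

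**Figure D1:**
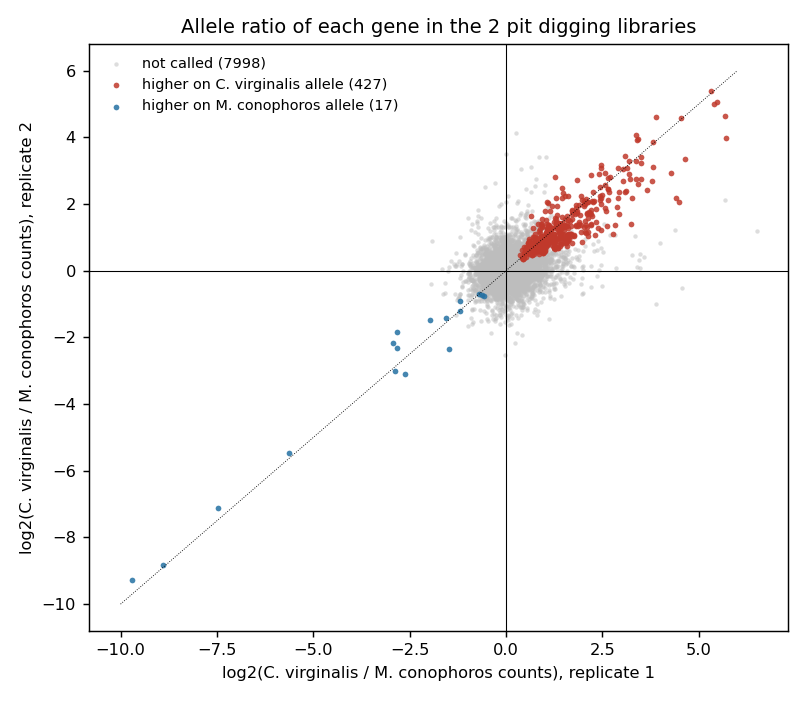
Log2 ratio of C. virginalis to M. conophoros counts for each of 8442 genes in pit digging replicate 1 (x axis) and replicate 2 (y axis); the dotted line marks equal ratios. The 427 red points are genes called higher on the C. virginalis allele, the 17 blue points genes called higher on the M. conophoros allele, and the 7998 grey points were not called. The 4 lowest blue points are the mitochondrially encoded genes.

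The number of calls depended on the library left out. It was 166 without pit digging replicate 1 and 434 without replicate 2, with the remaining library fitted beside the isolated pair. Of the 403 calls that entered these fits, 142 remained without replicate 1 and 264 without replicate 2. DESeq2 called 237 genes, 226 of them towards C. virginalis, and 228 of the 440 calls to which it gave an adjusted p remained.

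The libraries as a whole leaned towards C. virginalis. That allele held 53.9% of all counts in pit digging replicate 1 (exact Clopper-Pearson 95% interval 53.87 to 53.98%, which covers counting error only) and 53.1% in replicate 2 (52.997 to 53.13%). The mean over pit digging was 53.5% ± 0.610, against 52.7% ± 0.0125 in isolation (SD, n = 2 each) and 52.2% in the castle building sample. The excess over isolation was 0.785 percentage points. A permutation test (exact, two-sided) gave p = 0.333, the lowest that 2 libraries against 2 allow, and without pit digging replicate 1 the excess was 0.3531. The median gene leaned less than the sum of counts: over the genes tested, the median log2 ratio was 0.083 in replicate 1 and 0.059 in replicate 2. The 427 genes called towards C. virginalis held 12.9% of the counts of tested genes in each pit digging library. The 7998 genes that were not called had a C. virginalis share of 52.7% in replicate 1 and 51.6% in replicate 2.

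The 4 mitochondrially encoded genes that were tested lay almost wholly on the M. conophoros allele. They encode subunits of cytochrome oxidase (COX1, COX2) and of complex I (ND4, ND6), and they were the 4 genes with the largest imbalance of all those called. COX1 had 49 C. virginalis and 23492 M. conophoros counts in replicate 1, and 15 and 6785 counts in replicate 2. COX2 had 9 and 7505 counts in replicate 1, and 9 and 5525 in replicate 2. The C. virginalis share of these genes ran from 0.120% for COX2 in replicate 1 to 2.19% for ND4 in replicate 2, and no library gave a share above that. ND6, whose log2 ratio was -7.34 ± 0.12 (SE, adjusted p = 2.53e-05), had 34 C. virginalis and 5994 M. conophoros counts in replicate 1, and 12 and 1679 in replicate 2. A further 2 mitochondrial genes, ATP6 (7 and 3196 counts) and ND1 (8 and 1241 counts), were listed in replicate 1 and not in replicate 2, and so were not tested. The same side was seen in isolation, where COX1 had a C. virginalis share of 0.182% and 0.206%, and in castle building, where it was 0.269%. The difference from isolation was not called for COX1 (log2 difference 0.14 ± 0.10 SE), ND4 or ND6.

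Outside the mitochondrial genome 13 genes were called towards M. conophoros, of which 3 had a symbol, and the calls towards M. conophoros grew to 56 with TMM and 60 with centring, mitochondrial genes included. The cilium-associated gene tbc1d32 had 9 C. virginalis and 69 M. conophoros counts in replicate 1, and 15 and 68 in replicate 2, a log2 ratio of -2.50 ± 0.27 (SE, adjusted p = 0.0096). Its C. virginalis share was 11.5% and 18.1% in pit digging, against 25.5% and 39.6% in isolation and 23.5% in castle building. The other pair were chaperone genes with small differences. The HSP90 co-chaperone aip had a C. virginalis share of 38.1% in replicate 1 and 38.2% in replicate 2 (log2 ratio -0.70 ± 0.11, adjusted p = 0.031), and tcp1, which encodes a subunit of the cytosolic chaperonin that folds actin and tubulin, had 40.3% and 37.0% (log2 ratio -0.66 ± 0.12, adjusted p = 0.047). Neither aip nor tcp1 passed with DESeq2 (adjusted p = 0.511 and 0.615) or when either pit digging library was left out, and tbc1d32 did not pass without replicate 1.

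A small set of genes lay almost wholly on the C. virginalis allele. In both pit digging libraries 16 genes had at least 90% of their counts there, 5 of them with a symbol. The transcriptional coactivator gene sub1 had 553 C. virginalis and 14 M. conophoros counts in replicate 1, and 375 and 9 in replicate 2, a log2 ratio of 5.32 ± 0.16 (SE, adjusted p = 0.00038). The polyamine-acetylating enzyme sat1 had 378 and 9 counts in replicate 1, and 192 and 6 in replicate 2 (log2 ratio 5.22 ± 0.20). The nucleotide-binding phosphoramidase hint1 had 491 and 21 counts in replicate 1, and 308 and 13 in replicate 2 (log2 ratio 4.55 ± 0.15). For all of these the share differed between the pit digging libraries by less than 1 percentage point. The locus APK84_gt11, for which the files give no product, had a share of 97.8% in replicate 1 and 97.1% in replicate 2, and tmbim4, a Golgi membrane protein that counters cell death, had 91.3% and 93.8% and was not called without replicate 1.

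Several of these strongest genes were not listed in every other library, so that a fit restricted to genes shared by all paradigms leaves them out. The gene sub1 was listed in no isolated or castle building library. In isolation sat1 was listed in replicate 1 only, at 96.2%, and hint1 in replicate 2 only, at 98.2%, and neither was listed in castle building. The glycolytic enzyme pgam1 stood at 86.5% and 87.6% in pit digging, against 87.4% and 90.7% in isolation. The heme-binding membrane protein pgrmc2 had 95.5% in replicate 1 and 81.8% in replicate 2 of pit digging. The Rab GTPase-activating protein family member tbc1d9b stood at 84.6% and 89.5%, the protein phosphatase 4 subunit ppp4r4 at 82.6% and 80.6%, and the axonal NAD-synthesising enzyme nmnat2 at 82.0% and 76.9%. In isolation tbc1d9b was listed in replicate 2 only, at 87.7%. For ppp4r4 the isolated shares were 54.2% in replicate 1, from 48 counts, and 87.9% in replicate 2. For nmnat2 the share was 54.3% in isolated replicate 1 and 47.8% in castle building. The call of ppp4r4 was lost when either pit digging library was left out. In all, 1912 of the tested genes were missing from at least 1 isolated or castle building table. Of these, 85 were called towards C. virginalis and 7 towards M. conophoros, or 4.81%, close to the 5.26% of all genes tested. They were less deeply counted, with a median of 86.5 summed counts in replicate 1 and 54 in replicate 2, against 182 and 117 over all genes tested.

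Among genes of signalling and adhesion, the granin chgb had 4083 C. virginalis and 298 M. conophoros counts in replicate 1, and 1154 and 178 in replicate 2. The log2 ratio was 3.26 ± 0.26 (SE, adjusted p = 0.0041). The helix-loop-helix inhibitor id2 had 434 and 42 counts in replicate 1, and 168 and 25 in replicate 2 (log2 ratio 3.12 ± 0.19). The beta-arrestin arrb2, which switches off G protein-coupled receptors, had a share of 91.5% in replicate 1 and 85.8% in replicate 2. The adhesion receptor adgrb1 stood at 95.7% and 80.6%, and its adjusted p was 0.0294, against 0.101 with a robust estimate of the spread. The ubiquitin ligase mgrn1 stood at 89.7% and 84.0%, the splicing-associated gene luc7l3 at 90.6% and 81.8% (not called without replicate 1), dazap2 at 91.9% and 87.1%, and the Golgi tethering subunit cog8 at 85.5% and 88.3%. In isolation luc7l3 stood at 70.0% and 48.0%, and in castle building at 46.8%. For dazap2 the values were 93.9% and 94.4% in isolation and 95.7% in castle building, and for cog8 89.4%, 87.3% and 72.6%.

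**Figure D2:**
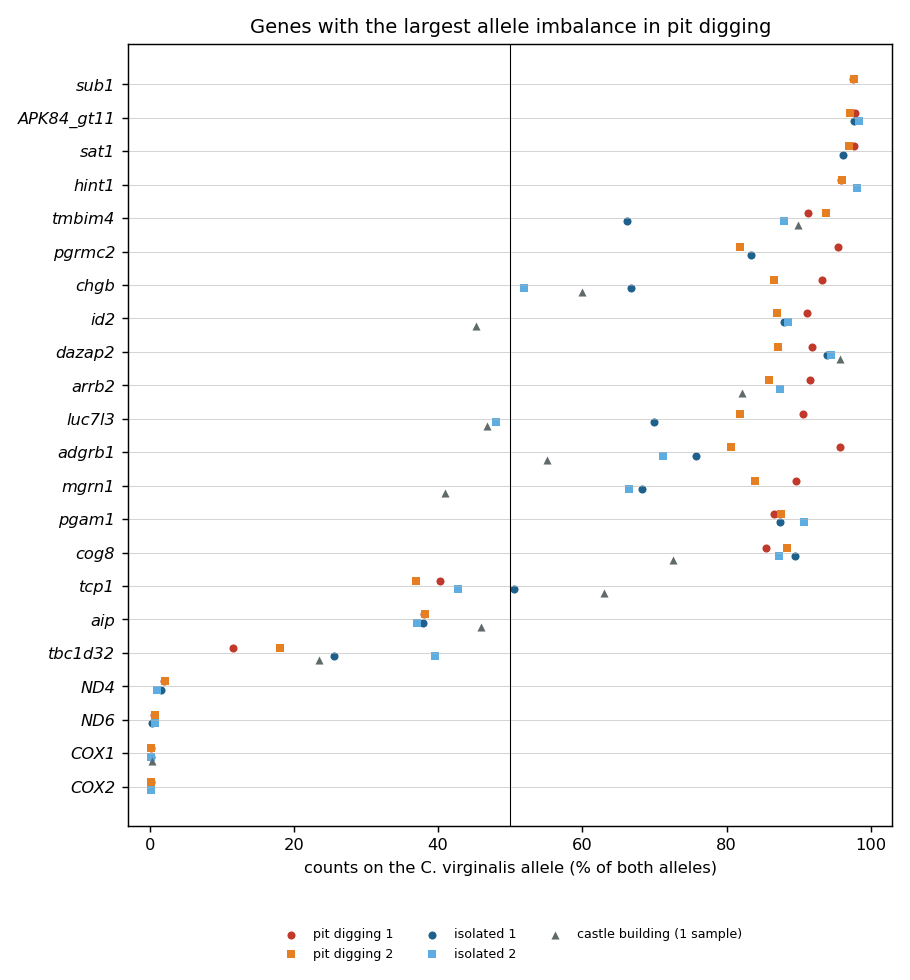
C. virginalis share of the counts of each gene (x axis, % of both alleles) for the 15 symbols with the largest ratio towards C. virginalis and the 7 called towards M. conophoros; each marker is a library, and castle building is 1 sample. The mitochondrial genes sit at 2.19% or less and sub1, APK84_gt11, sat1 and hint1 at 95.9% or more in both pit digging libraries, where tcp1 and aip lie between 37.0 and 40.3%.

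Among the symbols with the highest summed counts described here, COX1 and COX2, given above, were called, and the others were not. The myelin gene mpz had 18479 summed counts in replicate 1 and 12372 in replicate 2, and its share was 53.3% and 52.7% (log2 ratio 0.18 ± 0.04 SE, adjusted p = 0.11). For ndrg4 the share was 51.5% and 52.3%, for the calcium channel pore gene cacna1a 51.0% and 52.7%, for the amyloid precursor-like gene aplp1 54.0% and 51.9%, and for rsrp1 54.2% and 58.9%. The calcium pump atp2b2 (59.97% and 52.3%) and r3hdm1 (62.2% and 56.0%) had wider gaps between the libraries and were not called.

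The lists with the highest shares of called members, among those with at least 5 tested, were granins (41.7%) and calmodulin signalling (41.2%), beside 5.26% of all genes. Both were deeply counted, with a median of 631.5 summed counts for granins and 725 for calmodulin signalling in the library with fewer, against 110.0 over all genes tested, and the part of depth in these counts was not tested. Of all genes tested with at least 500 and below 1000 counts in the library with fewer, 13.7% were called. At 1000 counts or more the share was 25.8%. Granins are the proteins that fill dense-core vesicles, where prohormone convertases cut neuropeptide precursors. Of 12 granin and prohormone processing genes 5 were called towards C. virginalis, 0 towards M. conophoros and 7 not at all, and the median log2 ratio of the list was 0.31, against 0.067 over all genes tested. Beside chgb these were led by the secretogranin scg3, with 861 C. virginalis and 376 M. conophoros counts in replicate 1 and 651 and 267 in replicate 2 (log2 ratio 1.24 ± 0.10 SE). The vesicle membrane protein ptprn2 had a share of 70.3% and 73.4%, and chga 58.9% and 60.3%. The fifth was cadps, which primes dense-core vesicles for release and was named after its values were seen. The pituitary, which is rich in granins, was the tissue whose hormone genes were listed in pit digging replicate 2 and isolated replicate 2 only, and its part in these ratios was not tested. With DESeq2, and likewise without replicate 1, 3 of the 12 genes were called.

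Calmodulin is the calcium sensor of neurons, and calcineurin is the phosphatase it switches on. Of 17 genes for calmodulin, calcineurin and CaM kinase signalling 7 were called towards C. virginalis, 0 towards M. conophoros and 10 not at all, with a median log2 ratio of 0.43. The calmodulin gene calm3 had 615 C. virginalis and 111 M. conophoros counts in replicate 1, and 333 and 73 in replicate 2 (log2 ratio 2.34 ± 0.13 SE, adjusted p = 0.0017). The calcineurin regulatory subunit ppp3r1 had a share of 71.5% and 70.4%, its catalytic subunit ppp3ca 63.2% and 64.0%, and calm2 65.1% and 67.5%. The calmodulin genes encode near-identical proteins, and how the counting treated reads shared between them is not given in the sources used here. Without replicate 1, and likewise with DESeq2, 4 members were called.

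Of 12 genes of radial glia, astroglia and ependyma 3 (25%) were called, all towards C. virginalis, beside 5.26% of all genes tested. This list had a median of 346.5 summed counts in the library with fewer counts, against 110.0 over all genes tested. The astrocyte membrane protein mlc1 had 678 C. virginalis and 154 M. conophoros counts in replicate 1, and 465 and 112 in replicate 2 (log2 ratio 2.10 ± 0.11 SE). The glutamate transporter slc1a2, which clears glutamate from synapses, had a share of 67.5% and 67.3%, and the glycolytic enzyme aldoc 75.6% and 66.0%. Of 20 neurogenesis and immature neuron genes 3 (15%) were called higher and 0 called lower: id2, the neuronal stathmin stmn2 (69.0% and 71.3%) and the RNA-binding gene elavl4 (66.4% and 65.1%), which did not pass with DESeq2 or without replicate 1. Of 15 oligodendrocyte and myelin genes the lineage factor olig2 alone (6.67%) was called, at 69.6% and 79.3%, and it did not pass when either pit digging library was left out.

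Of 41 synaptic vesicle and exocytosis genes 5 (12.2%) were called towards C. virginalis, and 2 without replicate 1. They included the calcium sensor of release syt1 (61.9% and 66.9%), the endocytic protein amph (73.4% and 83.3%), the active zone scaffold pclo (58.1% and 62.0%) and the complexin cplx3 (71.5% and 63.0%). This list had a median of 409 summed counts in the library with fewer counts, against 110.0 over all genes tested. The calls of pclo, amph and cplx3 were lost without replicate 1, those of pclo and amph without replicate 2, and those of pclo and cplx3 with DESeq2. The list of voltage-gated channels also held potassium channels of other types, such as leak channels. Of its 23 genes 3 (13.0%) were called higher, namely the potassium channel kcnc1 (68.3% and 68.9%), the leak channel kcnk1 (61.9% and 61.0%) and the calcium channel subunit cacnb3 (67.1% and 65.2%). The calls of kcnk1 and cacnb3 were lost with DESeq2 (adjusted p = 0.484 for kcnk1 and 0.284 for cacnb3) and when either pit digging library was left out. Among 35 trans-synaptic adhesion genes 2 were called higher, adgrb1 and its relative adgrb3 (71.2% and 65.4%, lost without replicate 1). Among 46 cadherin, contactin and axon guidance genes 2 were, the cadherin cdh13 (71.6% and 76.0%) and the contactin cntn1 (62.7% and 68.3%, lost with DESeq2 and without replicate 2). These lists held 5.71% and 4.35% of calls, near the 5.26% of all genes. None of the members of these 4 lists was called towards M. conophoros.

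In each of the transmitter lists a single gene was called, towards C. virginalis, among 14 glutamate receptor and auxiliary genes (the AMPA receptor subunit gria2, 66.9% and 77.7%), 17 GABA genes (the receptor anchor gphn, 70.4% and 61.7%), 9 monoamine and acetylcholine genes (the monoamine oxidase maob, 73.0% and 70.5%) and 25 postsynaptic scaffolds (lin7a, 61.1% and 60.5%). The single call was 7.14% of the glutamate and 5.88% of the GABA list, beside 5.26% of all genes tested. It was 11.1% of the monoamine and acetylcholine list and 4% of the scaffold list. The median log2 ratio was 0.13 for the glutamate, 0.17 for the GABA, 0.04 for the monoamine and acetylcholine and 0.07 for the scaffold list, against 0.067 over all genes. The call of lin7a was lost with DESeq2 (adjusted p = 0.651) and when either pit digging library was left out, that of gphn with DESeq2 (0.161) and without replicate 1 (0.261), and that of gria2 without replicate 2 (0.053). Of 8 immediate early genes, whose transcription follows neuronal activity, egr1 was called, with 520 C. virginalis and 268 M. conophoros counts in replicate 1 and 630 and 363 in replicate 2 (log2 ratio 0.87 ± 0.10 SE, adjusted p = 0.013). It missed the threshold with DESeq2 (adjusted p = 0.0629), in the fit with the isolated libraries (adjusted p = 0.0585) and when a pit digging library was left out (adjusted p = 0.412 without replicate 1 and 0.198 without replicate 2). The call of egr1 was 12.5% of the immediate early list. No member was called among 7 neuropeptide and receptor genes (median log2 ratio 0.19, smallest p for adcyap1, 74.6% and 48.9%), 11 steroid and thyroid genes (ncor1, 64.3% and 69.0%) or 11 circadian clock genes (csnk1e, 58.6% and 64.2%). Lists this small cannot set 0 calls apart from the 5.26% of all genes.

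**Figure D3:**
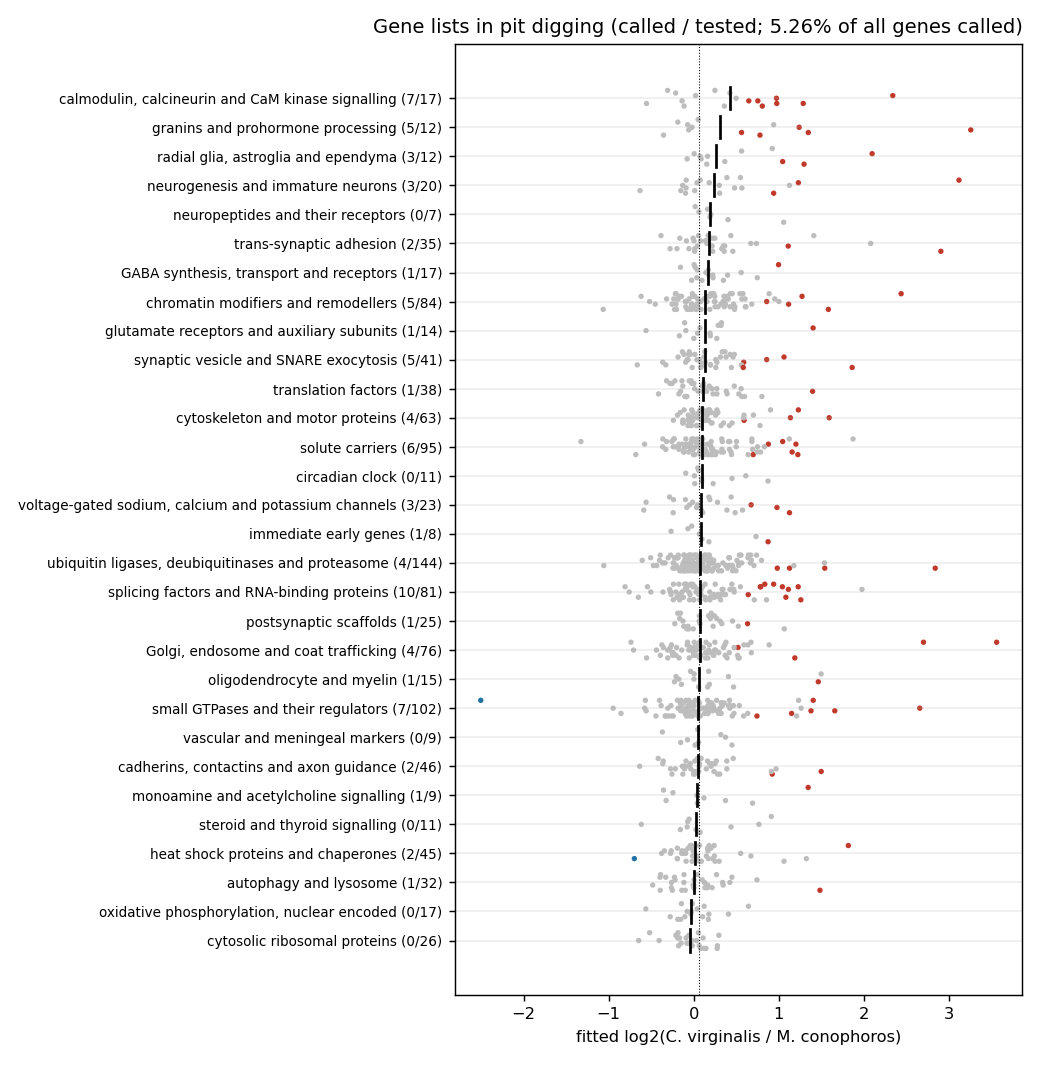
Fitted log2 ratio of C. virginalis to M. conophoros (x axis) of each tested member of the 30 gene lists with at least 5 tested members, with the mitochondrially encoded genes not shown; black bars are list medians and the dotted line is the median of all genes, 0.067. Red and blue points are calls towards C. virginalis and M. conophoros, and the counts after each name are genes called and tested.

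None of 26 cytosolic ribosomal protein genes was called, beside 5.26% of all genes tested, and their median log2 ratio was -0.05. The smallest p among them was that of rps10, with 42.8% and 43.2% and an adjusted p of 0.057, and with TMM scaling between the alleles 2 of the 26 were called. None of 17 nuclear-encoded oxidative phosphorylation genes was called either (median log2 ratio -0.03, smallest p for ndufb3, 57.8% and 56.0%). In the list of 38 translation factors only tpt1, the translationally controlled tumour protein, was called, at 72.1% and 72.9%. Of 45 heat shock and chaperone genes the HSP90 co-chaperone ptges3 was called higher (77.8% and 78.6%, lost without replicate 1) and aip called lower on the C. virginalis allele. The chaperonin gene tcp1, described above, is not a member of that list, which holds cct4, cct7 and cct8 of the same complex. The share called was 2.63% for the translation factors and 4.44% for the heat shock and chaperone genes.

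Larger cell-biological families are given beside the 5.26% of all genes called. Splicing and RNA-binding proteins had 10 of 81 genes (12.3%) called towards C. virginalis, among them taf15 (72.4% and 68.5%), rbm33 (68.5% and 66.1%) and the helicase ddx5 (70.3% and 66.4%), and the list held 3 calls without replicate 1 and 5 with DESeq2. Small GTPases and their regulators had 6 of 102 called higher (6.86% called in either direction), for example rab2a (73.7% and 71.3%), rab41 (72.7% and 71.7%) and rab10 (68.7% and 69.2%), and 1 called lower, tbc1d32. Solute carriers had 6 of 95 (6.32%) called higher, with slc20a2 (73.5% and 63.9%), slc22a23 (63.3% and 66.6%) and slc39a12 (68.4% and 72.2%) beside slc1a2. Chromatin genes had 5 of 84 (5.95%), including jade2 (65.8% and 63.0%), hmgn5 (79.4% and 69.1%), pcgf5 (73.1% and 68.2%) and smarcd3 (67.7% and 70.4%). Golgi and coat trafficking genes had 4 of 76 (5.26%), with tmed10 (68.0% and 71.3%) and ap2m1 (58.5% and 59.3%) beside cog8 and tmbim4. Cytoskeleton and motor genes had 4 of 63 (6.35%), with dctn5 (70.3% and 66.7%), klc4 (61.1% and 59.1%) and lasp1 (77.8% and 72.1%) beside stmn2. Ubiquitin and proteasome genes had 4 of 144 (2.78%), with psmd7 (76.4% and 71.5%), psma2 (70.7% and 65.4%) and rnf165 (70.8% and 61.8%) beside mgrn1. Autophagy and lysosome genes had 1 of 32 (3.12%), man2b1 (74.0% and 72.0%). Apart from splicing, these shares lay between 2.78 and 6.86%, near that of all genes. The calls of slc22a23, slc39a12, pcgf5, smarcd3, ap2m1 and psma2 were lost with DESeq2 and when either pit digging library was left out. Those of klc4, lasp1, rnf165 and man2b1 were lost with DESeq2 and without replicate 1, and that of dctn5 with DESeq2. In replicate 2 man2b1 had 25 summed counts. The call of taf15 was lost when either pit digging library was left out, and those of jade2 and psmd7 without replicate 1. Without replicate 1 the lists held fewer calls: 3 for small GTPases, 2 each for solute carriers and Golgi genes, 1 each for chromatin, cytoskeleton and ubiquitin genes, and 0 for autophagy.

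Markers of other tissues gave few tested genes, too few to set their calls apart from the 5.26% of all genes. Of 3 erythrocyte markers the cytoskeletal gene epb41, which neurons also express, was called (62.4% and 58.4%), and it did not pass with DESeq2 (adjusted p = 0.462) or when either pit digging library was left out. No gene was called among 9 vascular and meningeal markers (smallest p for pdgfrb, 60.6% and 51.7%) or 2 microglia and leukocyte markers, and 0 retina and pineal markers were tested. The antigen presentation gene cd74 had a share of 91.8% in replicate 1 and 58.8% in replicate 2 of pit digging, against 92.3% and 92.9% in isolation and 46.3% in castle building. Its fitted log2 ratio was 1.72 ± 0.63 (SE, adjusted p = 0.26).

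The libraries agreed on the direction of a gene mainly where it was deeply counted. Over all 8442 genes, 57.5% had the same direction in both libraries, 36.4% opposite directions and 6.09% a ratio of exactly 1 in at least 1 library. Among the 2043 genes with 20 to 49 counts in the library with fewer, 47.4% had the same direction and 1.03% were called. Opposite directions made up 42.3% of these genes, and 10.3% had a ratio of exactly 1 in at least 1 library. Among the 357 genes with at least 1000 counts, 83.5% had the same direction and 25.8% were called. Across genes, the log2 ratios of the libraries had a Pearson correlation of 0.571 (Spearman 0.328), and 0.528 without the mitochondrial genes; genes are not independent replicates, and the points share the depth of their library. The calls of deep genes were also smaller, with a median size of 0.83 on the log2 scale at 1000 counts or more, against 1.77 at 20 to 49. At low counts only large ratios can pass the threshold, so this gap follows from the calling and says nothing about deep genes.

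**Figure D4:**
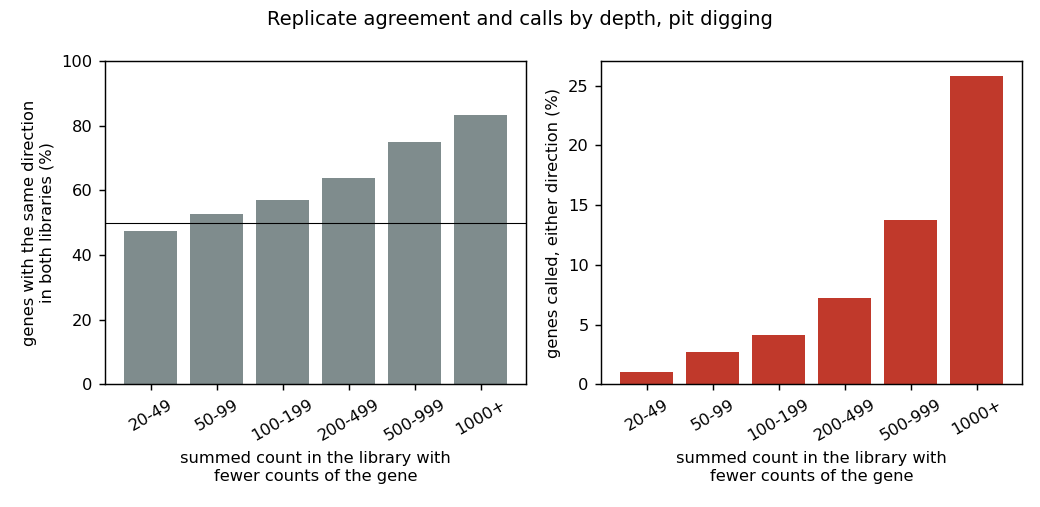
Left, the share of genes with the same direction of imbalance in both pit digging libraries (%); right, the share of genes called in either direction (%); both by the summed count of the gene in the library with fewer counts. The line on the left marks 50%. Agreement was 47.4% in the lowest bin and 83.5% in the highest, and the share called 1.03% and 25.8%. In the lowest bin 42.3% had opposite directions and 10.3% a ratio of exactly 1 in at least 1 library.

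Some genes took opposite sides in the pit digging libraries by wide margins. The allele split of 13.3% of genes differed between the libraries beyond the 5% point of a chi-square test on their counts, which compares these libraries only. The mitochondrial phosphate carrier slc25a3 had 1081 C. virginalis and 73 M. conophoros counts in replicate 1, and 48 and 95 in replicate 2. The ribosome assembly gene utp23 stood at 96.0% and 41.3%, the chromatin reader ing3 at 80.0% and 38.8%, and the bromodomain gene brd9 at 54.1% and 18.3%. Among the 10 widest gaps all but pnn had the larger C. virginalis share in replicate 1, and that of pnn, a nuclear speckle protein, was 37.7% in replicate 1 and 77.9% in replicate 2. None of these genes was called. In isolation slc25a3 stood at 31.3% in replicate 1 and 94.0% in replicate 2, and the 2 isolated libraries lay on opposite sides as well.

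Pit digging was set against isolation in the 7384 genes listed in all 4 libraries with at least 20 counts in each. The allele ratio differed for 0 genes, or 0.0% (edgeR), although 408 had an unadjusted p below 0.05, and DESeq2 called 6. Among genes with a symbol the smallest p belonged to calm3, with a C. virginalis share of 84.7% and 82.0% in pit digging, against 65.8% and 57.3% in isolation (log2 difference 1.66 ± 0.22 SE, adjusted p = 0.19), and to cdh13, with 71.6% and 76.0%, against 50.9% and 51.2% (1.43 ± 0.19). Both genes were picked by this test, so the gap between their libraries adds no support to it. Among the other symbols with the smallest p, the general transcription factor gtf2e2 had 71.2% and 81.9% in pit digging, against 49.5% and 49.1% in isolation, the ceramide synthase cers1 77.3% and 67.6%, against 44.4% and 48.4%, and the dynein light chain dynlrb2 76.8% and 77.9%, against 57.1% and 55.2%. The actin-binding gene lasp1 (77.8% and 72.1%, against 45.7% and 42.7%) had only 54 and 43 summed counts in pit digging. The autophagy gene gabarap had 57.0% and 50.1% in pit digging, against 30.6% and 18.7% in isolation, and chgb 93.2% and 86.6%, against 66.7% and 52.0%. Summed counts in isolation were low for gabarap (62 and 75) and dynlrb2 (42 and 96). For cdh13 they were 53 and 289, against 1506 and 2148 in pit digging. For the tubulin gene tubb the pit digging shares were the lower ones, 47.7% and 50.02%, against 74.2% and 63.4%. With a replicate block, an added allele term for the replicate number, 11 genes were called. Among them were calm3 (adjusted p = 0.0103), cdh13 (0.032) and chgb (4.2e-05). Leaving out pit digging replicate 2 gave 4 genes, and leaving out isolated replicate 1 gave 2.

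Of the 427 genes called towards C. virginalis in pit digging, 406 were listed in isolated replicate 1, where 93.1% had more C. virginalis than M. conophoros counts, against 55.1% of all tested genes listed there. In isolated replicate 2 the values were 92.1% of 405 genes, against 55.7%, and in the castle building sample 75.8% of 355 genes, against 53.2%. The median share of these genes was 63.9% and 63.1% in the isolated libraries and 56.4% in castle building.

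Set against castle building, in the 6286 genes listed in all 6 tables with at least 20 counts in each sample, the allele ratio differed for 10 genes (0.159%; edgeR), with 4 higher (0.0636%) and 6 lower (0.0955%) in pit digging. The castle value is 1 sample, assumed to vary like the others. Marker sums differed as well. Oligodendrocyte markers summed to 829 and 831 CPM in the castle files, against 5696 and 5535 CPM in pit digging. Astroglial markers summed to 4076 and 4072 CPM, against 1305 and 1529 CPM. Each of these sums rested mainly on a single gene. The myelin gene mpz had 1738 summed counts in castle building, against 18479 and 12372 in pit digging, and slc1a2 8746, against 4172 and 3359. The other called astroglial genes had fewer counts in castle building: mlc1 264, against 832 and 577, and aldoc 1008, against 1996 and 1209. These counts are not scaled to depth. Neuronal markers were closer, at 3735 and 3825 CPM against 3389 and 4091 CPM. Behaviour and make-up cannot be told apart here. The sodium pump family member atp1b4 had a C. virginalis share of 75.8% and 73.8% in pit digging, against 9.03% in castle building (log2 difference 4.90 ± 0.30 SE, adjusted p = 0.0045), and mgrn1 89.7% and 84.0%, against 40.9% (3.37 ± 0.31). Lower in pit digging were tpt1 (72.1% and 72.9%, against 95.4%), ywhaq (61.7% and 62.1%, against 85.4%), ddx5 (70.3% and 66.4%, against 92.5%) and wsb1 (48.4% and 49.6%, against 78.5%). The remaining 4 had LOC identifiers. The helix-loop-helix gene id2 (91.2% and 87.0%, against 45.2%), rab2a (73.7% and 71.3%, against 45.0%), scg3 (69.6% and 70.9%, against 47.8%) and ncapd2 (60.6% and 45.5%, against 88.3%) had an adjusted p of 0.054 each. Their castle shares rested on summed counts of 42 for id2, 160 for rab2a, 441 for scg3 and 1468 for ncapd2. In isolation tpt1 stood at 71.6% and 71.8%, ywhaq at 64.3% and 61.7%, and ddx5 at 67.8% and 67.1%. The isolated shares were 54.8% and 56.0% for wsb1, 87.9% and 88.6% for id2, and 72.2% and 74.3% for scg3. They were 67.0% and 64.1% for rab2a, and 49.3% and 57.6% for ncapd2. Both isolated libraries had more C. virginalis counts for atp1b4, as in pit digging and unlike castle building. All these shares lay nearer to pit digging than to castle building. For mgrn1 they lay between, at 68.3% and 66.5%. Leaving out pit digging replicate 2 gave 23 genes, leaving out the first castle file 16, and TMM scaling between the alleles 21. The calls of mgrn1, ddx5 and wsb1 did not hold when either isolated library was left out, that of ywhaq without isolated replicate 2, and that of wsb1 without pit digging replicate 1 or with DESeq2.

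**Figure D5:**
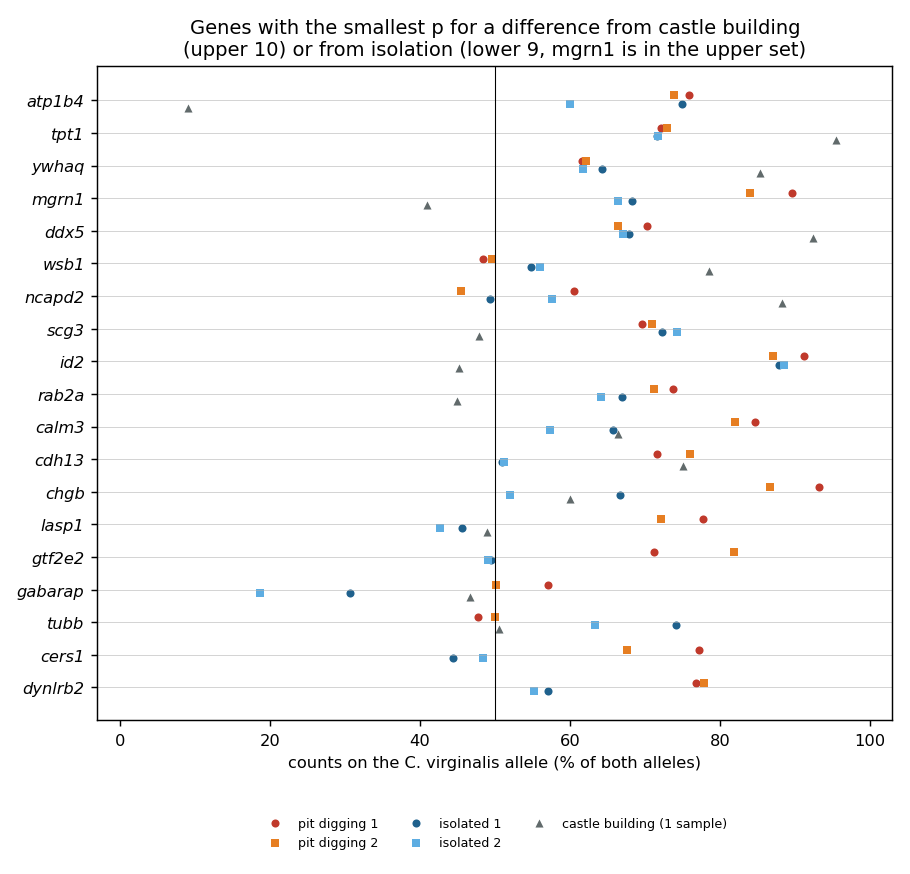
C. virginalis share (x axis, % of both alleles) of the 10 symbols with the smallest p for a difference between pit digging and castle building, and below them 9 further symbols with the smallest p between pit digging and isolation; each marker is a library and castle building is 1 sample. For atp1b4 both pit digging libraries sit at 73.8 and 75.8% and castle building at 9.03%. The genes were picked by the tests they illustrate.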

How the data were processed

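Per the labels, total RNA was extracted from whole brain with Trizol for Illumina sequencing. For each library the authors deposited a table of read counts per gene and allele with their log2 ratio, per the file headers. The counts as deposited were whole and not normalized, and the largest deviation of the deposited log2 value from that of the counts was 5.33e-15. Per the submitters' processing notes STAR 2.4 was used. Build, annotation, informative sites, allele counter and strand: not given in the sources used here. A ratio is therefore that of reads assigned to each allele. CPM are counts scaled to the library's total.

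The 4 allele columns of pit digging entered edgeR 4.0.16 (R 4.3.3; glmQLFit, glmQLFTest) with a term per library and an allele coefficient. Both alleles of a library shared its total as library size, with no TMM. Residual degrees of freedom were 1 there, and 2 for differences between paradigms, which had an allele coefficient for each. Adjustment was by Benjamini-Hochberg at 0.05, and the SE is the size of the log2 value over the square root of F. Alternatives included DESeq2 1.42.0. On simulated counts for the 8442 genes of the allele comparison, 19.4% of 1.5-fold, 73.1% of 2-fold and 100% of 4-fold differences were recovered, with 5 false calls.

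Genes were named by rule: the 15 largest called ratios in each direction with at least 50 counts per library, 10 among genes missing from another table, up to 4 called members per list (35 lists) or the member with the smallest p, mitochondrial genes, the 10 most abundant, the 10 widest opposite gaps, and up to 10 for each difference. Of the genes so named, 2 are not reported here. Members, lists and rules were chosen with earlier results of these data known. After the tables' symbols were seen, 20 genes of another function that shared a name stem were taken out of the lists. The 200 genes just inside the minimum (20 or 21 counts in the library with fewer) had a median C. virginalis share of 49.6% in replicate 1, and the 256 just outside (18 or 19) had 52.6%.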

Additional observations from a re-analysis of the deposited data

Results flagged for a closer look

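Between pit digging and castle building, 10 genes had a different allele ratio by the test of the difference itself (edgeR, adjusted p under 0.05). Of these 4 had LOC identifiers. Among the symbols, the log2 ratio was higher in pit digging by 4.90 for atp1b4 and 3.37 for mgrn1. It was lower in pit digging for tpt1 (log2 difference -2.98), ddx5 (-2.49), wsb1 (-1.93) and ywhaq (-1.85). The isolated shares of these symbols lay nearer to pit digging than to castle building, apart from mgrn1, which lay between. In each case the castle value is a single sample, and summed counts also differed: atp1b4 had 120 and 107 counts in pit digging, against 963 in castle building, and tpt1 1570 and 970, against 394. Marker sums differed too, as given above. The parts of expression level and of make-up in the allele differences were not tested.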

How the results depend on the processing

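The 444 calls of pit digging became 237 with DESeq2, which gave 819 genes no adjusted p, 286 with no minimum on the sum, 703 with each library centred on its median ratio, 675 by exact binomial tests in each library, and 166 to 434 with either pit digging library left out. Calls towards C. virginalis were 96.2% of the total, and 91.5% after centring. Without pairing the alleles within a library, 6 genes were called. Other combinations of scaling, robust prior and bias-adjusted deviances were chosen after seeing the data: without scaling they gave 500 to 630 calls, with TMM 564 to 614, and with centring 614 to 703. Of 79 named genes that were called, none changed direction in any of the 20 alternatives in which it was fitted. All alternatives used the same pit digging counts, in which every called gene had the same direction in both libraries, so this adds no support. Of the 79 genes, 53 passed with DESeq2 and 26 did not, 79 passed with TMM or centring alone, and 5 passed without pairing the alleles. Of the 70 that could be fitted, 36 passed without pit digging replicate 1 and 49 without replicate 2. With a robust prior adgrb1 lost its call, and chgb and gria2 did so where TMM or centring was combined with it. The difference from isolation gave 6 genes with DESeq2, 11 with a replicate block and 0 to 4 with a library left out. The allele ratios of libraries of the same number did not deviate together (Pearson -0.026 over 7384 genes), so the numbers were not taken as pairs. Pituitary markers did go with the number. They summed to 761 CPM in pit digging and 1335 CPM in isolated replicate 2, against 20.3 and 43.1 CPM in replicate 1. The difference from castle building gave 21 genes with TMM, 6 with a sum of at least 100, 274 with the castle files as 2 samples, 223 with these and a replicate block, and 7 to 23 with a library left out. The excess of the C. virginalis share over isolation was 0.3531 to 1.22 percentage points with a pit digging library left out. The power to call was limited on simulated counts, which had no spread of a gene's own. There, 2-fold differences from isolation were recovered in 43.3% of cases, and those from castle building in 16.4%.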

Other observations

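LOC identifiers, which the files do not pair with names, held 213 of the 444 calls. Towards C. virginalis, LOC101467799 had 308 C. virginalis and 6 M. conophoros counts in pit digging replicate 1, and 200 and 8 in replicate 2. Its share was 98.1% and 96.2% in pit digging, against 85.7% and 83.5% in isolation. LOC101467378 stood at 98.1% and 94.1% in pit digging, against 97.4% in isolated replicate 2 and 50.6% in castle building, where its summed count was 170. Towards M. conophoros, LOC105941464 had 33 and 202 counts in replicate 1, and 16 and 136 in replicate 2, and was listed in no other paradigm. LOC101468866 had 7 and 52 counts in replicate 1, and 8 and 65 in replicate 2. Of the tested genes with LOC identifiers 5.93% were called, against 4.76% of those with symbols, which was not tested.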
